A study of Mus musculus with 10 samples.

Results

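The mitochondrial ribosomal proteins are the nuclear-encoded proteins of the ribosome that works inside mitochondria. Their genes were taken as every row of the expression table whose symbol begins with Mrpl or Mrps followed by a digit, which gave 78 of the 32889 genes. All 78 are protein-coding in RefSeq, and all passed the filter on low counts that left 19676 genes for testing. By their known place in the ribosome, 51 belong to the large subunit, 26 to the small subunit and 1, Mrps36, to neither. RNA sequencing of total RNA had been done on the brown fat (adipose tissue that produces heat) of wild-type C57BL/6J mice. There were 3 obesity-prone libraries (labelled HFDhigh) and 3 obesity-resistant libraries (HFDlow), both from mice on a high-fat diet, and 4 control libraries (ND) from mice on regular chow. The labels do not give the age of the mice, the weeks of feeding, the weight that made a mouse prone or resistant, or whether a library is 1 animal, so a p-value here measures the spread between these samples only.

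Mitochondria keep a small genome that encodes core subunits of the respiratory chain and of ATP synthase, and only the mitochondrial ribosome translates those messages. Its ribosomal RNAs come from the mitochondrial genome, whereas all of its proteins are made in the cytosol and imported. Some of these proteins descend from bacterial ribosomal proteins, and others were added during the evolution of mitochondria. Brown fat is rich in mitochondria, whose respiratory chain, uncoupled from ATP synthesis by Ucp1, releases heat.

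Total counts lay between 35583997 and 37327770 per library. Ucp1, the defining protein of brown fat, had 6815, 8461 and 2882 CPM (counts scaled to a common library size after TMM normalisation) in obesity-prone, 8653, 9753 and 9140 CPM in obesity-resistant and 6240, 8771, 9384 and 10270 CPM in control libraries. Obesity-prone replicate 3 stood apart, with the lowest Ucp1 and the highest summed erythrocyte, macrophage and white adipocyte markers of the 10 libraries. Within the control group, replicate 4 differed most from the others, with a chi-square of the counts per gene of 59.3 to 125 against them and 26.0 to 64.9 among them. In the obesity-prone group the same measure was 138 and 204 for replicate 3 and 48.1 between the other 2. The members took 0.166% of its counts, against 0.249% to 0.294% in the other 9 libraries.

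Per length, the members spanned a 27.8-fold range of levels. FPKM, the authors' value normalised for gene length and sequencing depth, averaged over the 10 libraries from 3.95 for Mrps25 to 110 for Mrpl12. The median member stood at 26.0 FPKM, against 2.94 FPKM for the median tested gene. Of the 78 members, 65 lay between 10 and 50 FPKM, 7 above and 6 below. The highest was Mrpl12 at 110 ± 20.9 FPKM (SD over 10 libraries), a protein of the stalk that draws translation factors to the large subunit. Mrpl42, a large-subunit protein with no bacterial counterpart, followed at 98.8 ± 20.7 FPKM, and Mrps21, a small-subunit protein of bacterial descent, at 90.9 ± 17.2 FPKM. Next came Mrpl34 at 89.1 ± 20.6 FPKM, Mrpl30 at 77.4 ± 15.6 FPKM and Mrpl4 at 68.8 ± 11.5 FPKM, which are large-subunit proteins with bacterial counterparts. Among these 6, the difference between neighbours in the order was smaller than the spread over libraries. The lowest were Mrps25 at 3.95 ± 0.316 FPKM, Mrpl19 at 4.64 ± 0.781 FPKM, Mrpl57 at 6.35 ± 0.850 FPKM and Mrpl11 at 7.92 ± 1.24 FPKM. Large-subunit and small-subunit members had medians of 27.1 and 23.7 FPKM. The summed FPKM of the large subunit was 2.18 to 2.21 times that of the small subunit in obesity-prone, 2.18 to 2.25 times in obesity-resistant and 2.22 to 2.32 times in control libraries.

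**Figure D1:**
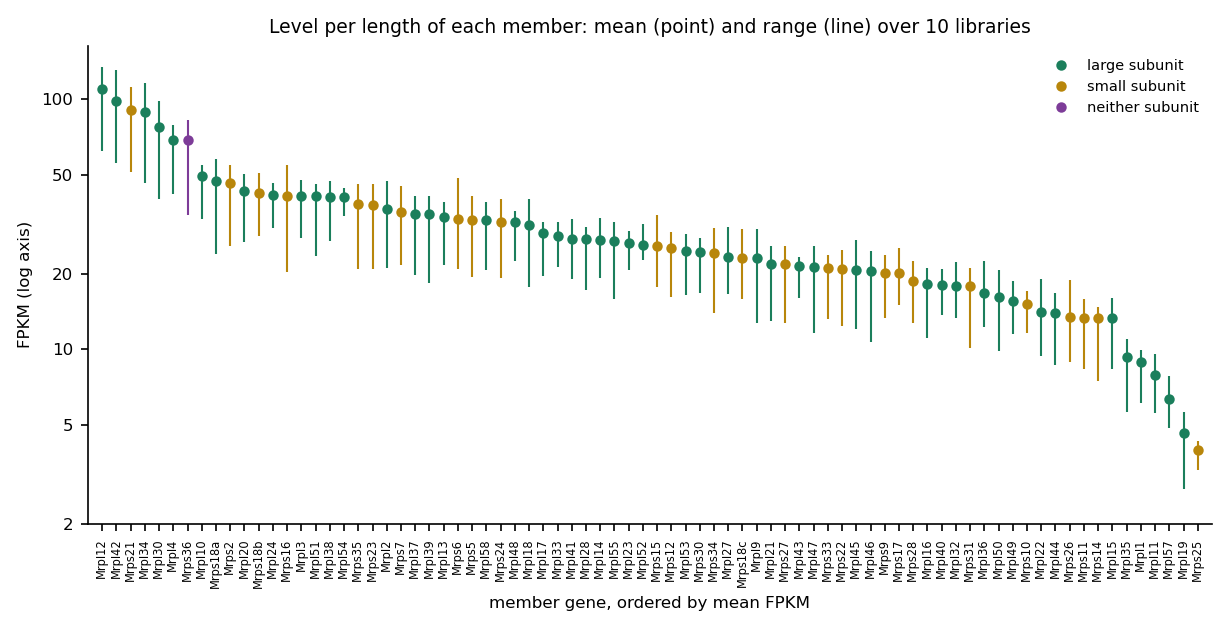
FPKM (log axis) of the 78 members in order of their mean over the 10 libraries, with a line for the range over libraries and colour for the subunit. Levels run from 3.95 FPKM for Mrps25 to 110 FPKM for Mrpl12, and 65 members lie between 10 and 50 FPKM.

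Comparing obesity-prone with control libraries, 77 of the 78 members had a lower fitted level in the obesity-prone libraries, against 49.4% of all genes tested, and 1, Mrps6, had a higher one. The differences were small, and the median log2 fold change of the members was -0.39, with quartiles of -0.48 and -0.28, while the median over all tested genes was 0.01. Summed over members, the level was 2102 ± 499 FPKM in obesity-prone, 2478 ± 203 FPKM in obesity-resistant and 2630 ± 149 FPKM in control libraries (SD, n = 3, 3 and 4). Few single members passed the test. In edgeR's quasi-likelihood test with Benjamini-Hochberg adjustment over all genes tested, 5 members fell (Mrps26, Mrpl2, Mrps18c, Mrps15 and Mrpl32) and Mrps6 rose at an adjusted p below 0.05. Of all 19676 genes, 7.0% changed, 3.29% downward and 3.71% upward, so in this fit 6 called members of 78 is a share near that of the background. At an unadjusted p below 0.05, 42 members were lower, against 13.2% of all genes, and in 37 members every obesity-prone library lay below every control library, against 10.6% of all genes. Every obesity-prone library lay above every control library in 1 member, Mrps6, against 9.66% of all genes. In bulk tissue, fewer cells of a type and less RNA per cell cannot be told apart.

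**Figure D2:**
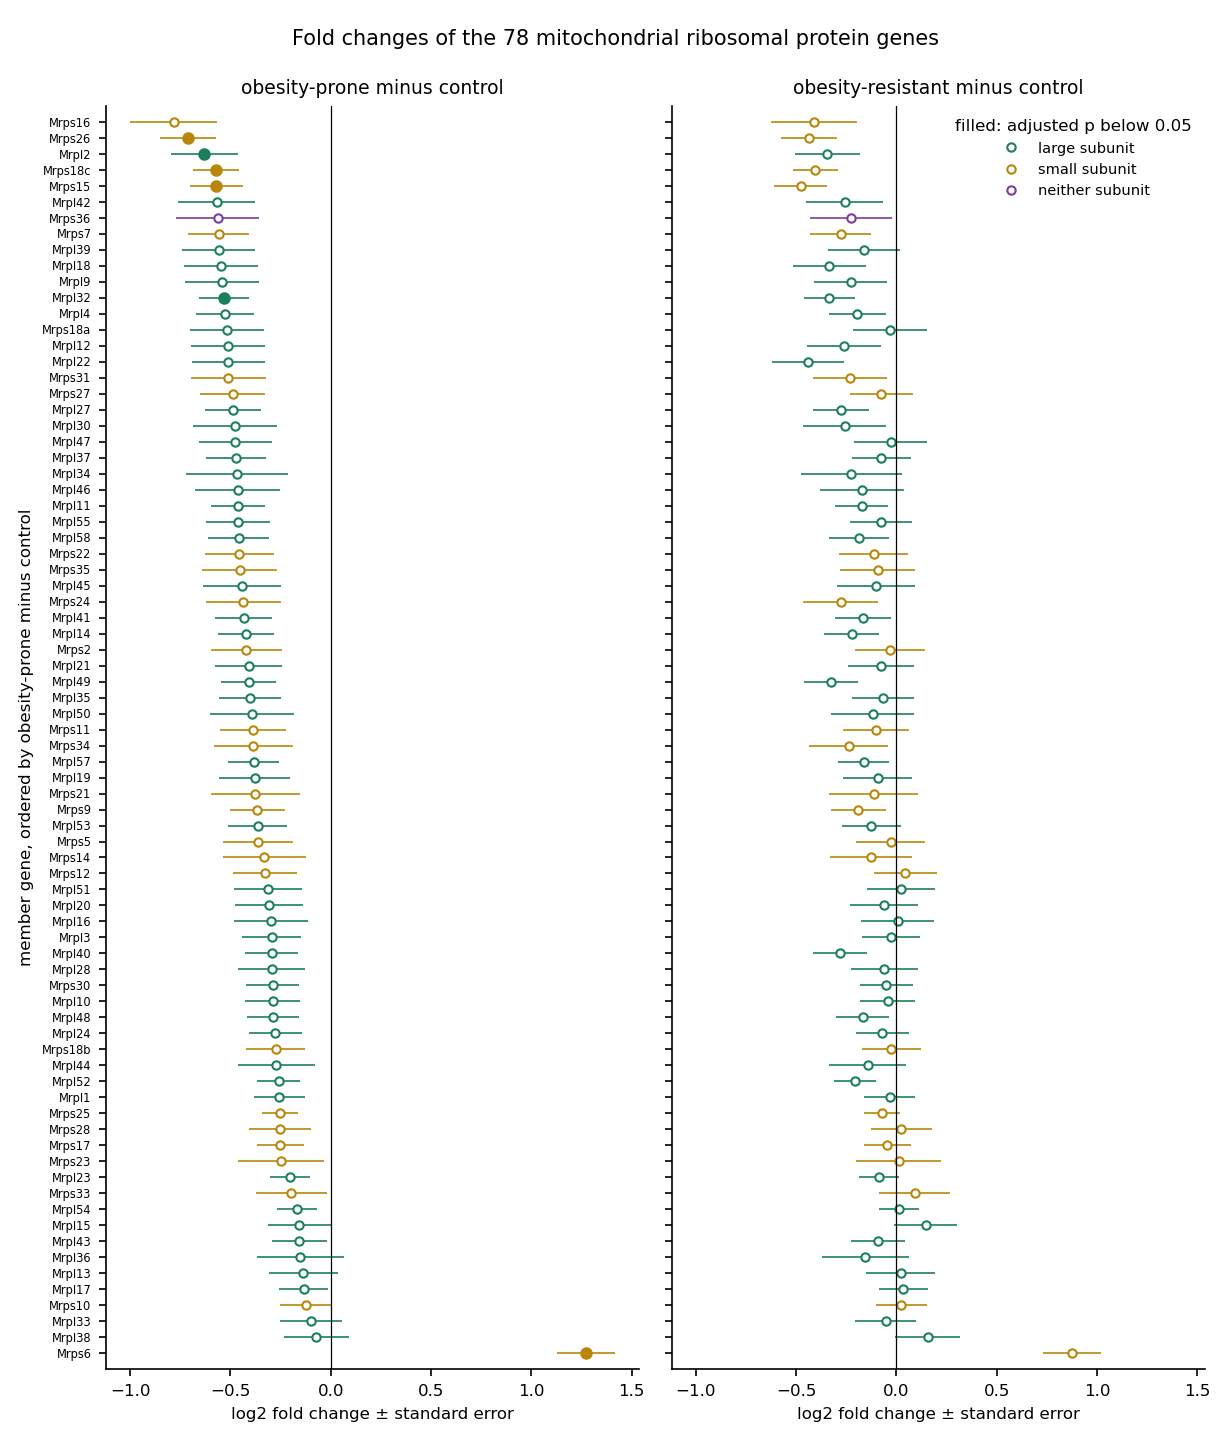
Log2 fold change with its standard error for each of the 78 members, in obesity-prone minus control (left) and obesity-resistant minus control libraries (right). Genes run in the order of the left panel, filled points have an adjusted p below 0.05, and colour gives the subunit. On the left, 77 members lie below 0 and Mrps6 alone lies above it, at 1.27.

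The calls moved with the libraries used, among the members and over all genes (6 and 1377 with all libraries). Without obesity-prone replicate 3 the members' median was -0.20, 67 members were below 0 and 2, Mrps6 and Mrps18c, were called, with 535 genes in all. Leaving out obesity-prone replicate 1 gave 1 called member and 508 genes, and leaving out obesity-prone replicate 2 gave 16 members and 2176 genes. Without obesity-resistant replicates 1, 2 or 3, which enter through the shared estimate of spread, 3 members were called each time, with 758, 587 and 709 genes. Without control replicates 1, 2 or 3 it was 1 member each time, with 256, 254 and 76 genes, and without control replicate 4 it was 16 members and 3040 genes. Mrps6 was the 1 member called in each of the 10 fits that left out a library. A fit of only the 2 groups called 1 member and 66 genes, DESeq2 17 and 3030, and limma on log2(FPKM + 0.5) 3 and 875. The share of members called was above that of all genes with DESeq2 (17 of 78 against 3030 of 32715, without the low-count filter). It was also above without obesity-prone replicate 2 (16 of 78 against 2176 of 20211), and below without obesity-prone replicate 1 (1 of 78 against 508 of 20172).

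Mrps6 is the mitochondrial counterpart of the bacterial small-subunit protein S6, and its gene lies at chr16:92058336-92112227 on the forward strand (RefSeq, GRCm38.p6). It had 41.9, 68.6 and 55.0 CPM in obesity-prone, 43.4, 42.4 and 40.1 CPM in obesity-resistant and 21.6, 25.9, 21.8 and 22.1 CPM in control libraries. All 6 high-fat diet libraries lay above all 4 control libraries, and the obesity-prone and obesity-resistant libraries overlapped. Its level was 2.41-fold that of control libraries in obesity-prone libraries, a log2 fold change of 1.27 ± 0.14 (SE; edgeR adjusted p = 0.00521). The value ranged from 0.98 to 1.44 over the 19 alternative settings and kept its call in each of them. Around the mean pattern of the members, Mrps6 had a residual SD of 0.77 on the log2 scale, against 0.24 for the next highest member and 0.12 for the median member.

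The Mrps6 transcript shares its first exon with Slc5a3, the sodium-coupled importer of the osmolyte myo-inositol, which lies on the same strand at chr16:92058322-92087473. In GENCODE M21 the genes have 159 exon bases in common, 18.8% of the 846-base Mrps6 transcript, and their RefSeq starts lie 14 bases apart. Slc5a3 had 147, 332 and 208 CPM in obesity-prone, 191, 162 and 162 CPM in obesity-resistant and 50.9, 69.2, 51.4 and 76.3 CPM in control libraries. As with Mrps6, obesity-prone replicate 2 was the highest library and no control library reached any high-fat diet library. The log2 fold change of Slc5a3 was 1.89 ± 0.25 between obesity-prone and control libraries (edgeR adjusted p = 0.00925), so it rose too. The ratio of Slc5a3 to Mrps6 CPM was 3.51 to 4.85 in obesity-prone, 3.83 to 4.40 in obesity-resistant and 2.35 to 3.46 in control libraries. Exons of another annotated gene on that strand, Gm49711, overlap those of Mrps6 over 305 bases. Reads in the shared bases cannot be assigned to 1 gene by sequence, so the level of Mrps6 is uncertain. Their part in the rise of Mrps6 was not tested.

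**Figure D3:**
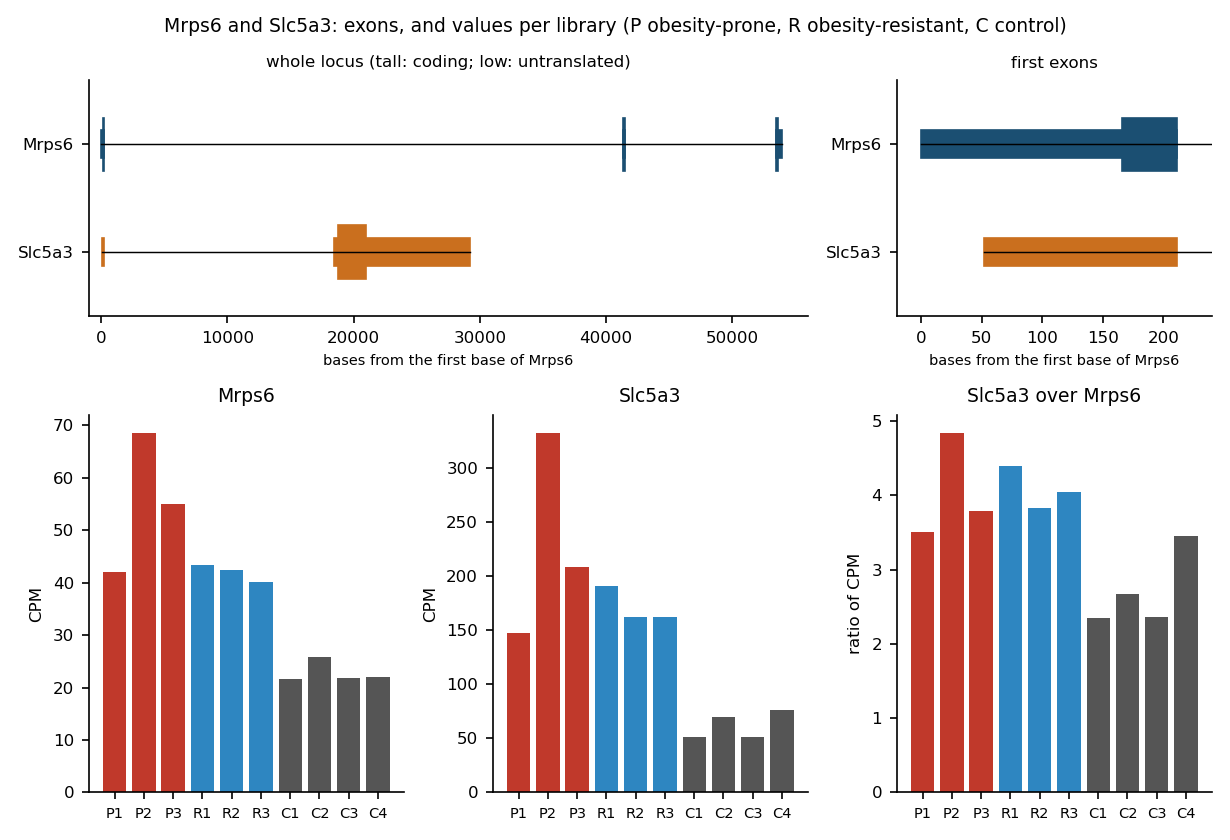
Above, exons of Mrps6 and Slc5a3 in GENCODE M21 as distance in bases from the first base of Mrps6, for the whole locus (left) and the first exons (right). Below, CPM of each gene and the ratio of Slc5a3 to Mrps6 in the 10 libraries, where the 6 high-fat diet libraries (P and R) exceed the 4 control libraries (C) for both genes.

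Upstream sequence is shown for Mrps6, as the member that rose, and for Mrps26, Mrps18c and Mrpl32, as members that fell and carry matches to the motifs searched. Mrpl2 fell and carries matches too, but its RefSeq gene start lies inside its window, so it is not shown. Each is the 250 bases before the transcription start in RefSeq (GRCm38.p6), read 5′ to 3′ on the gene's strand. Capitals mark GGGGCGGGG (the GC box bound by SP1), the CCAAT box, the ETS motif CCGGAAG (bound by factors such as GABP), the NRF1 motif GCATGCGC and the YY1 motif AAGATGGC, each on either strand. The Mrps6 window is chr16:92058086-92058335 on the forward strand, with 1 GC box. The end of this window is exon in GENCODE M21, where Mrps6 starts at chr16:92058270. It also runs past the start of Slc5a3 at chr16:92058322. The Mrps26 window is chr2:130563507-130563756 on the forward strand, with a CCAAT box and an ETS match in reverse. The Mrps18c window is chr5:100798509-100798758 on the forward strand, with an ETS match in reverse. The Mrpl32 window is chr13:14613038-14613287 on the reverse strand, with a YY1 match, a CCAAT box and 4 NRF1 matches, of which 2 overlap as the strands of a palindrome.
Mrps6: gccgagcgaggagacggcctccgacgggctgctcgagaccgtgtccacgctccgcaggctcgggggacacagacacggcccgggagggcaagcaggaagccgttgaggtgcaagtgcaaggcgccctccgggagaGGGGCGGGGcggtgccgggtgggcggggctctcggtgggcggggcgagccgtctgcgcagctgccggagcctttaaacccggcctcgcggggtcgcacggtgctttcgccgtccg
Mrps26: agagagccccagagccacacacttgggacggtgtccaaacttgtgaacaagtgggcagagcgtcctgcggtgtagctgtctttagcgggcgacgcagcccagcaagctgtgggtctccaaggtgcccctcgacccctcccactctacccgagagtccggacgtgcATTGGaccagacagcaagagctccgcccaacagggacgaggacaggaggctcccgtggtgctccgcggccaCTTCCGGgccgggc
Mrps18c: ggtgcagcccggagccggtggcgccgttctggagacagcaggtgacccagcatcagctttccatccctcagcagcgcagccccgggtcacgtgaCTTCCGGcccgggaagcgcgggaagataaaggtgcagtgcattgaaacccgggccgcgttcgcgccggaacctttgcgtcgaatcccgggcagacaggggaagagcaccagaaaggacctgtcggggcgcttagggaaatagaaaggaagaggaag
Mrpl32: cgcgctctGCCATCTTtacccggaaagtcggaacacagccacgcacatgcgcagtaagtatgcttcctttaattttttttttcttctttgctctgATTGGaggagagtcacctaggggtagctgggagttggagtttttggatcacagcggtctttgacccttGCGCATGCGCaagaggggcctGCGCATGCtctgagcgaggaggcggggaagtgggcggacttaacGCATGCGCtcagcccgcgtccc

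A RefSeq window of 250 bases before to 50 after the start was found for 69 of the 78 members. The ETS motif CCGGAAG was in 26 of them, 37.7%, against 9.93% of all 27025 windows and 18.5% of those of tested protein-coding genes. The YY1 motif AAGATGGC was in 12, 17.4%, against 3.19% of all windows and 4.76% of tested protein-coding ones. The NRF1 motif GCATGCGC was in 8, 11.6%, against 3.05% and 5.49%. For CCAAT the share of members was 39.1%, against 41.1% and 42.9%, and for GGGGCGGGG it was 18.8%, against 12.9% and 23.9%. TATAAA was in 5 members, 7.25%, against 15.7% and 9.31%. A match describes the letters in a window and does not show that a factor binds there. Yy1 itself is a member of the regulator list described later, where it rose in obesity-prone libraries.

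Among the members that fell, Mrps26 is a small-subunit protein with no bacterial counterpart, encoded at chr2:130563757-130565394. It had 10.03, 10.6 and 7.90 CPM in obesity-prone, 10.9, 12.1 and 11.5 CPM in obesity-resistant and 15.6, 14.9, 18.6 and 13.1 CPM in control libraries. No library of 1 group reached into another, with obesity-prone lowest and control highest. Its log2 fold change was -0.71 ± 0.14 between obesity-prone and control libraries (edgeR adjusted p = 0.0239), a level 0.611-fold that of control. Mrps18c, at chr5:100798759-100804467, is the 1 of the 3 Mrps18 paralogues that takes the place of bacterial S18 in the small subunit. It had 10.2, 10.7 and 8.16 CPM in obesity-prone, 11.0, 11.2 and 10.5 CPM in obesity-resistant and 14.3, 14.0, 16.1 and 13.4 CPM in control libraries. Every high-fat diet library was below every control library, and obesity-prone replicate 3 was the lowest of all. The log2 fold change was -0.57 ± 0.12 (edgeR adjusted p = 0.0242). Mrps15, at chr4:126046928-126055536, is the counterpart of bacterial S15, an early binder of the small-subunit RNA. It had 21.5, 20.9 and 15.3 CPM in obesity-prone, 19.3, 20.9 and 21.3 CPM in obesity-resistant and 31.8, 28.3, 29.7 and 24.5 CPM in control libraries. Here too the 6 high-fat diet libraries were below the 4 control libraries. Its log2 fold change was -0.57 ± 0.13 (edgeR adjusted p = 0.0341).

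Both called large-subunit members have bacterial counterparts. Mrpl2, at chr17:46646172-46650132, corresponds to bacterial L2, which lies near the peptidyl transferase centre. It had 32.3, 32.6 and 20.2 CPM in obesity-prone, 31.9, 37.2 and 34.7 CPM in obesity-resistant and 46.5, 41.2, 49.9 and 38.0 CPM in control libraries. The high-fat diet libraries lay below the control libraries, by a small gap between obesity-resistant replicate 2 and control replicate 4. The log2 fold change between obesity-prone and control libraries was -0.63 ± 0.17 (edgeR adjusted p = 0.0488). Mrpl32, at chr13:14610301-14613037, is cleaved by the m-AAA protease before it joins the ribosome, as shown in yeast and mouse. It had 11.6, 12.9 and 10.2 CPM in obesity-prone, 12.3, 14.0 and 13.6 CPM in obesity-resistant and 17.6, 17.8, 18.0 and 13.7 CPM in control libraries. The obesity-prone libraries were below the control libraries, and the obesity-resistant libraries overlapped control replicate 4. Its log2 fold change was -0.53 ± 0.12 (edgeR adjusted p = 0.0367). Without obesity-prone replicate 3, Mrps18c kept its call, with a log2 fold change of -0.46 (edgeR adjusted p = 0.0493). The other 4 kept their sign but not their call in that fit. Mrps26 had a log2 fold change of -0.59 (edgeR adjusted p = 0.0551), Mrps15 of -0.43 (0.0654), Mrpl2 of -0.44 (0.0726) and Mrpl32 of -0.45 (0.0928).

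**Figure D4:**
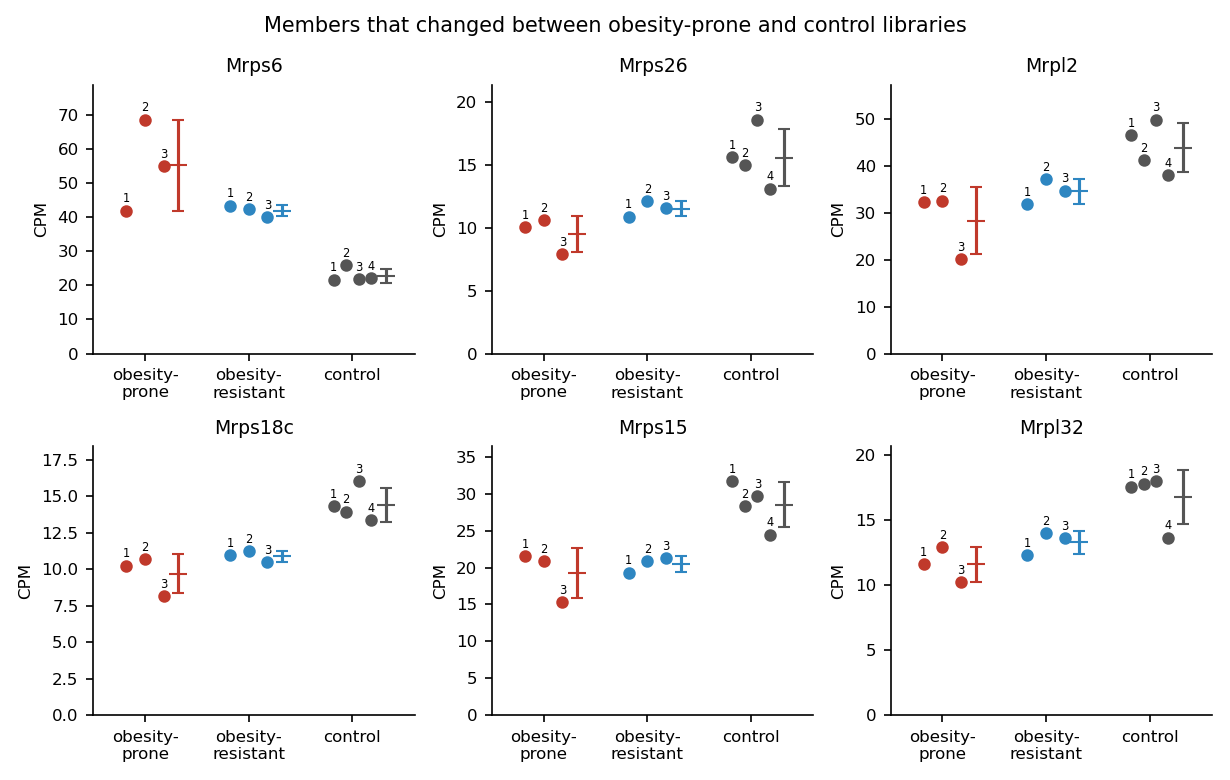
CPM of the 6 members that changed between obesity-prone and control libraries, with 1 point per library (numbered by replicate) and the group mean ± SD beside it. Mrps6 is higher in all high-fat diet libraries, and the obesity-prone points of the other 5 members lie below all control points.

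The member with the lowest fold change did not pass the test. Mrps16, a small-subunit protein of bacterial descent, had 18.9, 18.1 and 10.3 CPM in obesity-prone, 16.4, 24.3 and 20.6 CPM in obesity-resistant and 29.2, 26.9, 30.5 and 22.0 CPM in control libraries. Its obesity-prone libraries did not overlap the control libraries, and obesity-prone replicate 3 was far below the other 2. The log2 fold change was -0.78 ± 0.22 (edgeR adjusted p = 0.0549). At the other end, after Mrps6, came Mrpl38 with a log2 fold change of -0.07 ± 0.16, Mrpl33 with -0.10 ± 0.15, Mrps10 with -0.12 ± 0.13 and Mrpl17 with -0.13 ± 0.12. All 4 turned positive without obesity-prone replicate 3, at 0.14, 0.07, 0.01 and 0.01, and none was called in either fit.

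In the large subunit, log2 fold changes had their median at -0.39, and every one of the 51 was below 0, with 2 called lower, against 3.29% of all genes, and 25 lower without overlap between obesity-prone and control libraries, against 10.6% of all genes. The stalk proteins Mrpl12 and Mrpl10 are held together on the large subunit, where they recruit the factors that hydrolyse GTP during translation. Mrpl12 averaged 81.5 ± 23.7 CPM in obesity-prone, 97.2 ± 12.4 CPM in obesity-resistant and 116 ± 10.8 CPM in control libraries (SD, n = 3, 3 and 4). Its log2 fold change between obesity-prone and control libraries was -0.51 ± 0.19 (edgeR adjusted p = 0.108). Mrpl10 averaged 73.5 ± 15.8 CPM, 87.2 ± 2.81 CPM and 89.8 ± 7.50 CPM in the same groups, with a log2 fold change of -0.29 ± 0.14 (edgeR adjusted p = 0.195). Neither stalk protein was called.

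Around the exit of the peptide tunnel, Mrpl45 tethers the ribosome to the inner membrane, and Mrpl23 and Mrpl44 sit nearby. Mrpl45 averaged 33.0 ± 9.92 CPM in obesity-prone, 41.8 ± 7.66 CPM in obesity-resistant and 44.8 ± 3.25 CPM in control libraries. Its log2 fold change was -0.44 ± 0.20 (edgeR adjusted p = 0.173), and that of Mrpl44 was -0.27 ± 0.19 (adjusted p = 0.384). For Mrpl23 it was -0.20 ± 0.10 (edgeR adjusted p = 0.210). Mrpl58, a release-factor relative built into the large subunit that can free stalled peptides, had -0.46 ± 0.15 (edgeR adjusted p = 0.0871). Mrpl4, which lines the tunnel, stood just outside the threshold at -0.53 ± 0.14 (edgeR adjusted p = 0.0533). Mrps18a and Mrps30 carry small-subunit names but are built into the large subunit. Their log2 fold changes were -0.52 ± 0.18 and -0.29 ± 0.13 (edgeR adjusted p = 0.104 and 0.186).

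In the small subunit the median was -0.38, with 25 of 26 members below 0. Here 3 members were called lower and 1 higher, against 3.29% and 3.71% of all genes, and 11 were lower without overlap between the groups, against 10.6%. Mrps12 forms part of the decoding centre, where codon and tRNA are matched. It averaged 14.2 ± 3.48 CPM in obesity-prone, 18.4 ± 1.25 CPM in obesity-resistant and 17.9 ± 1.92 CPM in control libraries, with a log2 fold change of -0.33 ± 0.16 between obesity-prone and control libraries (edgeR adjusted p = 0.202). For Mrps2, of bacterial descent, the change was -0.42 ± 0.18 (edgeR adjusted p = 0.155). Mrps27, a pentatricopeptide repeat protein, had -0.49 ± 0.16 (edgeR adjusted p = 0.0839). Mrps34, needed for a stable small subunit in mouse, had -0.39 ± 0.20 (edgeR adjusted p = 0.225). Among the Mrps18 paralogues, Mrps18b had -0.27 ± 0.15 and Mrps18c -0.57 ± 0.12. Mrps36, a subunit of the alpha-ketoglutarate dehydrogenase complex despite its name, had -0.56 ± 0.21 (edgeR adjusted p = 0.112). Split by descent, the 45 members with a bacterial counterpart had a median of -0.38 and the 32 others of the ribosome one of -0.39.

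In obesity-resistant against control libraries, which share their control libraries with the comparison above, the members lay closer to 0. The median log2 fold change was -0.11, with 65 of 78 members below 0, and the median over all genes was -0.01. Without control replicate 3 the members' median was -0.06. No member was called by edgeR at an adjusted p below 0.05, where 0.142% of all genes were called and 0.0457% were called lower. At an unadjusted p below 0.05 there were 7 members, 6 of them lower, against 18.0% of all genes and 9.03% lower. DESeq2 called Mrps6, Mrps15 and Mrps18c. In 9 members every obesity-resistant library was below every control library, against 9.71% of all genes, and in 3 members every one was above, against 10.5%.

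Mrps6 again stood first, at 41.9 ± 1.70 CPM in obesity-resistant and 22.9 ± 2.04 CPM in control libraries (SD, n = 3 and 4). Its log2 fold change was 0.88 ± 0.14, with an edgeR adjusted p of 0.0532. With the replicate number as a block, in a fit that left out control replicate 4, it was 0.87 (edgeR adjusted p = 0.0360). That fit called 383 genes, against 864 without the block on the same libraries and 28 on all 10 libraries. Mrps6 was called in 11 of 20 settings, and it was the 1 member called when obesity-prone replicate 1 or replicate 2 was left out. Without obesity-prone replicate 3, and likewise without control replicate 4, 2 members were called, Mrps6 and Mrps15. Slc5a3 had a log2 fold change of 1.47 ± 0.25 here (edgeR adjusted p = 0.0532). The lowest members were Mrps15 at -0.48 ± 0.13 (edgeR adjusted p = 0.114), Mrpl22, which lines the peptide tunnel, at -0.44 ± 0.18 (0.240), Mrps26 at -0.44 ± 0.14 (0.151), Mrps16 at -0.41 ± 0.21 (0.345) and Mrps18c at -0.40 ± 0.11 (0.121). After Mrps6, the highest were Mrpl38 at 0.16 ± 0.16, Mrpl15 at 0.14 ± 0.16, Mrps33 at 0.09 ± 0.18 and Mrps12 at 0.04 ± 0.16. In Mrpl38 and Mrpl15 every obesity-resistant library was above every control library, without a call.

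Obesity-prone and obesity-resistant libraries, which share the diet, differed in the members by a median log2 fold change of -0.25, with 76 of 78 members below 0 and a median over all genes of -0.01. No member and no gene was called by edgeR (0% of 19676 genes). At an unadjusted p below 0.05 there were 6 members, 5 of them lower, against 15.4% of all genes and 5.62% lower, and DESeq2 called 0 members and 544 genes. In 15 members every obesity-prone library was below every obesity-resistant library, against 9.75% of all genes, and in 0 members was every one above, against 9.99%. Leaving out obesity-prone replicate 3 gave a median of -0.07. Leaving out obesity-prone replicate 2 gave -0.39, and 1 member, Mrps18a, was then called. The lowest member was Mrps18a, with 32.7, 41.3 and 20.8 CPM in obesity-prone and 42.9, 48.0 and 42.0 CPM in obesity-resistant libraries. Its groups did not overlap, and the log2 fold change was -0.49 ± 0.20 (edgeR adjusted p = 0.293). Mrpl47 followed at -0.45 ± 0.19, Mrps27 at -0.41 ± 0.17, Mrpl37 at -0.40 ± 0.16 and Mrpl39 at -0.40 ± 0.19. Mrps6 was again highest, at 0.40 ± 0.15 (edgeR adjusted p = 0.282), ahead of Mrpl36 at 0.003, Mrpl40 at -0.01, Mrpl33 at -0.04 and Mrpl52 at -0.05.

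In 77 of 78 members the lowest CPM of the 10 libraries was in obesity-prone replicate 3, where 22.6% of all tested genes had their lowest value. The exception, Mrps6, was lowest in control replicate 1. Control replicate 3 held the highest value of 52 members, against 13.2% of all genes. A score, the mean over members of log2 CPM minus each gene's mean over libraries, was -0.07, 0.03 and -0.67 in obesity-prone, -0.03, 0.11 and 0.02 in obesity-resistant and 0.17, 0.14, 0.29 and 0.02 in control libraries. Obesity-prone replicate 2 lay within the ranges of the other groups, replicate 1 slightly below both, and replicate 3 far below. The coefficient of variation of CPM within a group had a median over members of 26.2% in obesity-prone, 6.76% in obesity-resistant and 8.89% in control libraries. Score values for the large and the small subunit in obesity-prone replicate 3 were -0.66 and -0.66.

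Several marker lists differed in that library, and summed general adipocyte markers were lower in all obesity-prone libraries than in the other groups. General adipocyte markers (9 genes, none at 0) summed to 10260 to 12570 CPM in obesity-prone, 13250 to 15020 CPM in obesity-resistant and 14880 to 17240 CPM in control libraries. All 9 were below 0 between obesity-prone and control libraries, with a median log2 fold change of -0.52, and Cfd and Fabp4 fell. Without obesity-prone replicate 3 their median was -0.46, and Cfd was called. Between obesity-resistant and control libraries their median was -0.30, with 8 of 9 below 0. Between obesity-prone and obesity-resistant libraries it was -0.055, with 5 of 9 below 0. Brown adipocyte markers (11 genes, none at 0) summed to 4007 CPM in obesity-prone replicate 3, the lowest of a range of 4007 to 11120 CPM in obesity-prone, 11670 to 12710 CPM in obesity-resistant and 8795 to 12730 CPM in control libraries. Their median between obesity-prone and control libraries was -0.45, with 9 of 11 below 0, and -0.21 without obesity-prone replicate 3. Between obesity-prone and obesity-resistant libraries it was -0.60, with 10 of 11 below 0, and none was called. Erythrocyte markers (7 genes found, none at 0) summed to 2418 to 22210 CPM in obesity-prone, 708 to 2548 CPM in obesity-resistant and 822 to 6160 CPM in control libraries, with obesity-prone replicate 3 the highest. Macrophage markers (15 genes, none at 0) summed to 237 to 755 CPM, 159 to 201 CPM and 146 to 282 CPM in the same groups, again highest in obesity-prone replicate 3, and 4 of 15 rose between obesity-prone and control libraries, or 0 without that library. White adipocyte markers (10 genes) summed to 109 to 1195 CPM, 52.9 to 127 CPM and 85.1 to 164 CPM, with Hoxc9, Hoxc10 or Trim29 at 0 in most libraries and Hoxc9 alone at 0 in obesity-prone replicate 3. Of the 7 tested, 3 were below 0 between obesity-prone and control libraries. Lep, Mest and Sncg rose, or Sncg alone without obesity-prone replicate 3. Fibroblast and progenitor markers (11 genes, none at 0) summed to 1053 to 2569 CPM in obesity-prone, 713 to 910 CPM in obesity-resistant and 747 to 1272 CPM in control libraries, highest in obesity-prone replicate 3, and Ly6a rose, though not without that library. The list was mixed, with 5 of 11 below 0 between obesity-prone and control libraries, and Dcn was called lower without obesity-prone replicate 3. Endothelial markers (10 genes, none at 0) summed to 1566 to 1777 CPM, 1388 to 1738 CPM and 969 to 1762 CPM in the same groups, and skeletal muscle markers (17 genes) to 39.0 to 232 CPM, 59.4 to 2549 CPM and 40.6 to 3010 CPM, with Myh7, Pvalb, Ckm, Tnnc2, Myh2 or Actn3 at 0 in some libraries. Without obesity-prone replicate 3 the members' median between obesity-prone and control libraries was -0.20, against -0.39 with all libraries. The part of these cell types in the lower level of the members was not tested.

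**Figure D5:**
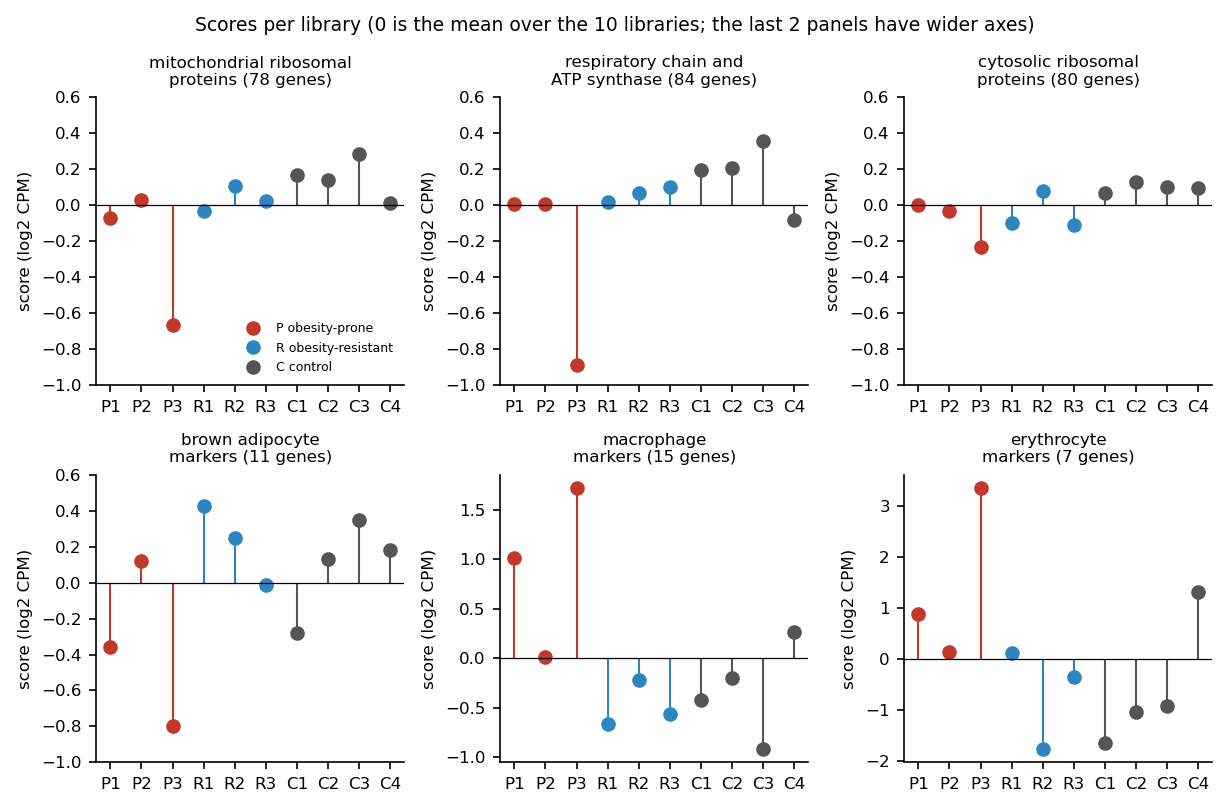
Score of each library (mean log2 CPM relative to the mean over the 10 libraries) for the members, for respiratory chain and ATP synthase genes, for cytosolic ribosomal proteins and for 3 marker lists, with P, R and C for obesity-prone, obesity-resistant and control libraries. Obesity-prone replicate 3 is lowest for the members (-0.67) and the respiratory chain (-0.89) and highest for macrophage (1.72) and erythrocyte markers (3.35).

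Genes that work with the mitochondrial ribosome were read from lists chosen with earlier results of these data known. Between obesity-prone and control libraries, 3.29% of all genes were called lower and 3.71% higher by edgeR, and 28.1% had an unadjusted p below 0.05. DESeq2 called 3030 of 32715 genes. It was run without the low-count filter, so this share includes genes of low counts and is not on the same basis as the edgeR shares. Of 5 ribosomal proteins of mitochondria that lack the Mrp prefix, all had a lower fitted level in obesity-prone than in control libraries, with a median log2 fold change of -0.42, and Aurkaip1 fell. Aurkaip1 averaged 35.2 ± 6.76 CPM in obesity-prone and 51.1 ± 6.93 CPM in control libraries, a log2 fold change of -0.54 ± 0.14 (edgeR adjusted p = 0.0495). It was not called without obesity-prone replicate 3, when the median of the 5 was -0.24. Of 16 translation factors, 0 were called by edgeR, 5 had an unadjusted p below 0.05 and DESeq2 called 1. Their median was -0.27, and -0.05 without obesity-prone replicate 3. Oxa1l, which inserts newly made proteins into the inner membrane, averaged 76.5 ± 20.2 CPM in obesity-prone and 117 ± 11.2 CPM in control libraries, a log2 fold change of -0.61 ± 0.18 (edgeR adjusted p = 0.0616). Of 29 assembly factors, 0 were called by edgeR, 11 had an unadjusted p below 0.05 and DESeq2 called 7. Their median was -0.22, and -0.14 without obesity-prone replicate 3. Trub2, a pseudouridine synthase of the mitochondrial RNA granule, averaged 14.5 ± 1.73 CPM in obesity-prone and 19.3 ± 1.86 CPM in control libraries, a log2 fold change of -0.41 ± 0.11 (edgeR adjusted p = 0.0509). Among 22 mitochondrial aminoacyl-tRNA synthetases the median was -0.23, or -0.12 without obesity-prone replicate 3, and Rars2, which charges arginine, fell. Rars2 averaged 18.0 ± 3.09 CPM in obesity-prone and 25.4 ± 2.83 CPM in control libraries, a log2 fold change of -0.50 ± 0.13 (edgeR adjusted p = 0.0491), and it was not called without obesity-prone replicate 3.

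In the machinery of mitochondrial DNA and RNA, 4 of 27 genes were called lower, against 3.29% of all genes, and 0 higher, with a median of -0.27. Hsd17b10, a dehydrogenase that is also a subunit of mitochondrial RNase P, averaged 42.4 ± 10.3 CPM in obesity-prone and 106 ± 31.1 CPM in control libraries, a log2 fold change of -1.33 ± 0.25 (edgeR adjusted p = 0.0213). The catalytic subunit of the same enzyme, Prorp, listed as 1110008L16Rik, averaged 9.96 ± 1.26 CPM in obesity-prone and 14.1 ± 1.87 CPM in control libraries, a log2 fold change of -0.50 ± 0.13 (edgeR adjusted p = 0.0491). Supv3l1, the helicase that helps to degrade mitochondrial RNA, averaged 36.8 ± 7.61 CPM in obesity-prone and 53.8 ± 3.20 CPM in control libraries, a log2 fold change of -0.55 ± 0.13 (edgeR adjusted p = 0.0392). Mterf2, a DNA-binding protein of the mitochondrial termination factor family, averaged 5.37 ± 0.884 CPM in obesity-prone and 11.3 ± 2.07 CPM in control libraries, a log2 fold change of -1.08 ± 0.17 (edgeR adjusted p = 0.0142). Without obesity-prone replicate 3 the median was -0.09, and the genes called were Mterf2 and Supv3l1, lower, and the helicase Twnk, higher. Regulators of mitochondrial gene expression had 2 of 14 genes called higher, against 3.71% of all genes, 0 lower and a median of 0.02. At an unadjusted p below 0.05 there were 5, of which 2 were lower, and DESeq2 called 2 higher and 1, Esrrg, lower. Yy1, a transcription factor with roles in mitochondrial gene expression, averaged 62.9 ± 4.32 CPM in obesity-prone and 43.7 ± 1.11 CPM in control libraries, a log2 fold change of 0.53 ± 0.07 (edgeR adjusted p = 0.00924), and it was called also without obesity-prone replicate 3. Pprc1, a coactivator of the PGC-1 family, averaged 47.1 ± 4.76 CPM in obesity-prone and 32.9 ± 6.09 CPM in control libraries, a log2 fold change of 0.52 ± 0.14 (edgeR adjusted p = 0.0491), and it lost its call without that library. Nrf1, the factor whose motif was searched above, had 44.3, 44.6 and 45.5 CPM in obesity-prone, 47.9, 43.7 and 47.2 CPM in obesity-resistant and 45.1, 43.6, 43.7 and 43.9 CPM in control libraries, which overlapped.

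Set beside the members' median of -0.39 between obesity-prone and control libraries, 84 nuclear-encoded genes of the respiratory chain and ATP synthase had a median of -0.44 with 79 below 0, and 80 cytosolic ribosomal proteins one of -0.20 with 70 below 0. Of all genes tested, 49.4% were below 0. Ndufc2, a complex I subunit, was the 1 respiratory chain gene called, at 71.2 ± 18.6 CPM in obesity-prone and 116 ± 17.5 CPM in control libraries, a log2 fold change of -0.71 ± 0.18 (edgeR adjusted p = 0.0473). Rplp2, Rpl36, Rpl11 and Rpl41 were the 4 cytosolic ribosomal proteins called, all lower. With 3.29% of all genes called lower, 4 of 80 is a share near the background and 1 of 84 a share below it. Reads of cytosolic ribosomal protein genes can be shared with processed pseudogenes, so their counts are uncertain. Rplp2, of the stalk of the cytosolic ribosome, averaged 124 ± 15.4 CPM in obesity-prone and 175 ± 7.53 CPM in control libraries, a log2 fold change of -0.50 ± 0.10 (edgeR adjusted p = 0.0241). Without obesity-prone replicate 3 the medians were -0.20 for the members, -0.19 for the respiratory chain and -0.11 for the cytosolic ribosomal proteins, with 2, 0 and 2 genes called, against 535 of 20019 genes in all. The scores of obesity-prone replicate 3 were -0.67, -0.89 and -0.23 for these groups.

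Several members have close neighbours in GENCODE M21, and whether the counting used strand is not stated. Only protein-coding neighbours were searched. Exons of 20 members overlap an exon of another protein-coding gene on the opposite strand, among them Mrps25, Mrpl19, Mrpl36, Mrpl44, Mrpl47, Mrps30 and Mrps34. Besides Mrps6, exons of Mrps24, Mrps34 and Mrpl53 overlap another protein-coding gene on the same strand. The counts of all of these are uncertain where reads could belong to either gene. For 23 members a protein-coding gene starts within 1000 bases on the opposite strand. These neighbours had a median log2 fold change of -0.20 between obesity-prone and control libraries. Mrps18c starts 29 bases from Helq, a DNA helicase, which had a log2 fold change of -0.003, against -0.57 for Mrps18c. Mrpl32 starts 75 bases from Psma2, a proteasome subunit, which had -0.28, against -0.53. Mrpl2 starts 207 bases from Klc4, a kinesin light chain, which had -0.11, against -0.63. Mrps12 starts 172 bases from Sars2, the mitochondrial seryl-tRNA synthetase, which had -0.70 (edgeR adjusted p = 0.0523), against -0.33.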

How the data were processed

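Per the labels' protocols, Bowtie2 2.2.5 placed the reads on the sequencing company's own gene set and RSEM 1.2.12 gave the expression values, and the submitters' processing notes add HISAT2 2.0.4 and the build GRCm38.p6. The deposited table holds the authors' RSEM expected counts, not normalised, and their FPKM per gene and library. The 6 columns of the authors' group means were not used. Of the members' count values, 39.5% were not whole numbers. Expected counts were rounded and tested with edgeR 4.0.16 (R 4.3.3): TMM factors, filterByExpr with a minimum count of 10, and a robust quasi-likelihood fit with 1 coefficient per group over the 10 libraries (7 residual degrees of freedom). P-values were adjusted over 19676 genes (Benjamini-Hochberg, threshold 0.05), and changed, rose or fell means past that threshold. Log CPM used a prior count of 2. Total counts of 35583997 to 37327770 limit the precision of low genes, and the lowest member value in any library was 6.42 CPM.

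On data simulated from each gene's mean over the 10 libraries, with 200 of 19676 genes changed in obesity-prone libraries, the obesity-prone against control test recovered 59 of 98 genes with a log2 fold change of size 1 and 93 of 97 with size 2, with 8 false calls. Changes below size 1, the range of every member but Mrps6, were not simulated, nor was a library that stood apart. The members and lists were chosen with earlier results of these data known. Members named are those called, the 5 highest and 5 lowest fold changes per comparison, the 6 highest and 4 lowest FPKM, and 16 chosen by role; in each list, genes called and the 2 with the lowest p in the comparison were eligible. Same-numbered obesity-resistant and control libraries deviated together from their group means (r = 0.12 to 0.19 over 3 pairs), which by the rule fixed for pairing (every r above 0.1) pairs them, although the labels name no shared litter or batch and unmatched pairs ranged from -0.33 to 0.25; pairs with obesity-prone libraries (-0.15 to 0.21) did not qualify. Alternatives were DESeq2 1.42.0, limma 3.58.1 on log2(FPKM + 0.5), other scaling factors and filters, a fit of 2 groups only, the replicate block, and leaving out libraries. The fit with the replicate block left out control replicate 4. Promoter windows and gene positions came from RefSeq, and exon overlaps from GENCODE M21, both GRCm38. Of the listed genes, those found and tested are the ones counted.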

Additional observations from a re-analysis of the deposited data

Results flagged for a closer look

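In the control group of 4 libraries, 49 sets of values were checked for a library far from the other 3, and 3 of them were marked. Chance marks about 1 in 20. Mrps6 was 25.9 CPM in control replicate 2 and 21.6 to 22.1 CPM in the other control libraries, all of them below the lowest high-fat diet library. Mrpl32 was 13.7 CPM in control replicate 4 and 17.6 to 18.0 CPM in the others. Control replicate 4 is the library that overlapped the obesity-resistant group. Mrpl23 was 20.6 CPM in control replicate 1 and 18.9 to 19.1 CPM in the others.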

How the results depend on the processing

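Total counts differed little between libraries, and each group had 3 or 4 of them. The members' median log2 fold change kept its sign in all 19 alternatives of each comparison. Leaving out 1 library at a time gave medians of -0.52 to -0.20 for obesity-prone against control, -0.15 to -0.06 for obesity-resistant against control and -0.39 to -0.07 for obesity-prone against obesity-resistant libraries. Over these fits the genes called ranged from 76 to 3040, 3 to 864 and 0 to 871, and the members called from 1 to 16, 0 to 2 and 0 to 1, for the 3 comparisons in that order; the cause was not tested.

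For obesity-prone against control, where 1377 genes and 6 members were called, a fit of only the 2 groups called 66 and 1, DESeq2 3030 and 17, limma on FPKM 875 and 3, and leaving out both obesity-prone replicate 3 and control replicate 4 called 2635 and 20. For obesity-resistant against control, where 28 genes and 0 members were called, no low-count filter gave 76 and 1, the stricter filter 68 and 1, only the 2 groups 391 and 1, the replicate block 383 and 1, DESeq2 1084 and 3, limma on FPKM 45 and 1, and leaving out both libraries 2212 and 16. For obesity-prone against obesity-resistant DESeq2 called 544 genes. The replicate block, which left out control replicate 4, called 5 members in obesity-prone against control libraries, where Mrpl2 lost its call (edgeR adjusted p = 0.0598).

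Members near 0 changed sign, none of them called. For obesity-prone against control, fits without 1 library ran from -0.276 to 0.009 for Mrpl17, -0.196 to 0.073 for Mrpl33, -0.250 to 0.140 for Mrpl38 and -0.221 to 0.008 for Mrps10, and leaving out both libraries gave 0.009 for Mrpl17 and 0.101 for Mrpl38. In obesity-resistant against control, Mrps12 was -0.017 with the replicate block and -0.013 to 0.110 without 1 library. Between obesity-prone and obesity-resistant libraries, Mrpl36 was -0.015 with upper-quartile factors and with limma, -0.006 with the replicate block and -0.212 to 0.188 without 1 library. Fits without 1 library ran from -0.141 to 0.127 for Mrpl33, -0.097 to 0.128 for Mrpl40 and -0.108 to 0.030 for Mrpl52, and leaving out both gave 0.120 for Mrpl33 and 0.121 for Mrpl40. Of the named members' alternatives, 936 kept direction and call, 45 gained a call, 44 lost one and 20 changed sign. For the 8 lists of pathway and ribosomal genes, alternatives chosen after seeing the data kept the sign of each median and moved the calls. Among marker lists, the T and B cell median was 0.08, and -0.22 without obesity-prone replicate 3.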

Other observations

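Akr1b3, aldose reductase, which makes the osmolyte sorbitol, was looked up after the values of Mrps6 and Slc5a3 were seen. It had 99.4, 122 and 85.5 CPM in obesity-prone, 105, 104 and 115 CPM in obesity-resistant and 60.1, 68.9, 66.9 and 80.7 CPM in control libraries. All high-fat diet libraries lay above all control libraries. Every obesity-prone library was above every control library in 9.66% of all genes, and every obesity-resistant library in 10.5%. The log2 fold change was 0.56 ± 0.13 between obesity-prone and control (edgeR adjusted p = 0.0348) and 0.64 ± 0.13 between obesity-resistant and control libraries (edgeR adjusted p = 0.0740). Slc6a6, the importer of the osmolyte taurine, had a log2 fold change of 0.23 ± 0.16 between obesity-prone and control libraries (edgeR adjusted p = 0.379), and its groups overlapped. Between obesity-resistant and control libraries it had 0.04 ± 0.16 (edgeR adjusted p = 0.916). Nfat5, also looked up, had 0.27 ± 0.10 (edgeR adjusted p = 0.0992) and 0.03 ± 0.10 (edgeR adjusted p = 0.902) in the same 2 comparisons.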
